A study of Homo sapiens with 6 samples.

Results

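The SLC25 genes encode the mitochondrial carriers, and their mRNA was compared here between A549-TIPARP cells and A549-GFP cells. Members were all table entries whose symbol is SLC25A followed by a number alone, which gave 49 entries for 48 symbols among 53826 entries per table. Of these, 38 carriers had more than 2 TPM (a gene's share of the transcripts in a library, corrected for their length) in at least 1 of the 6 libraries and were analysed, among 13181 analysed genes. Both lines were made from A549, an established human lung adenocarcinoma cell line, by transduction with a pMXs retroviral vector. A549-TIPARP cells stably overexpressed TIPARP from its coding region cloned out of cDNA of another A549 derivative, and A549-GFP cells stably overexpressed GFP instead. Each line was sequenced as 3 libraries of bulk RNA, numbered by experiment, and whether a line was 1 clone or a pool, and whether the libraries came from separate cultures, is not given in the sources used here. The p-values therefore measure the spread between these libraries, which may be technical, and in bulk RNA fewer cells of a type cannot be told apart from less RNA per cell.

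Mitochondrial carriers sit in the inner membrane, which is otherwise closed to most metabolites, and each moves a small set of solutes, often by exchanging one for another. Through them ADP and phosphate enter the matrix and ATP leaves, citrate reaches the cytosol for lipid synthesis, and amino acids, iron, glutathione and nucleotide cofactors reach the enzymes that need them. A few members lie in other membranes, such as SLC25A17 in peroxisomes and SLC25A46 in the mitochondrial outer membrane. TIPARP is a mono-ADP-ribosyltransferase that takes its ADP-ribose from NAD, and it is a target gene and a repressor of the aryl hydrocarbon receptor AHR.

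TIPARP itself stood at 3.68 to 11.4 TPM in A549-GFP libraries and at 90.5 to 131 TPM in A549-TIPARP libraries. The epithelial keratin genes KRT8 and KRT18 were at 3855 TPM or more in every library, as were EPCAM and CDH1 at 61 TPM or more, and AKR1B10, AKR1C1, ALDH1A1 and NQO1, genes known for high expression in A549, at 1277 TPM or more. KRT19 had 2.54 to 5.36 TPM in A549-GFP libraries and 10.9 to 19.2 TPM in A549-TIPARP libraries, while the lung markers NKX2-1, SFTPC and SFTPB were listed at the floor of the tables in all 6. Of 11 endothelial, mesenchymal and leukocyte markers, 7 were at the floor in all 6 libraries, among them PECAM1, CDH5, VWF, KDR and PTPRC. The summed leukocyte markers, CD68 and LYZ alone, gave 31.9 to 74.1 TPM in A549-GFP cells and 30.7 to 42.9 TPM in A549-TIPARP cells, and the summed mesenchymal markers gave 1.09 to 1.44 TPM and 1.64 to 2.56 TPM, all of it COL1A1 and LUM. A549-GFP replicate 2 stood apart from the other libraries, with the highest value of all 6 for 52% of the analysed genes, and carriers whose difference turned with it are also given without it. The tables hold TPM and no read counts, so library depths are unknown. Values by library are always given in the order of replicates 1, 2 and 3.

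SLC25A29 was the carrier with the largest difference between the lines, at 2.08-fold higher in A549-TIPARP cells, and no carrier passed the test adjusted over all genes. The stretches before the start of 3 carriers are shown, chosen by difference and level. SLC25A29 had the largest difference, and SLC25A5 and SLC25A39 were the most abundant carriers with every A549-TIPARP library below every A549-GFP library. Those of SLC25A28 and SLC25A32, which stayed lower in this way under each scaling used below, are not shown. Capitals mark GCGTG or its reverse complement CACGC, the core of the AHR response element. The sequences are from RefSeq (GRCh38.p14), written 5′ to 3′ on the gene's strand, and end just before the outermost start of the gene in GENCODE release 44.
SLC25A29 (chr14:100306548-100306694, minus strand): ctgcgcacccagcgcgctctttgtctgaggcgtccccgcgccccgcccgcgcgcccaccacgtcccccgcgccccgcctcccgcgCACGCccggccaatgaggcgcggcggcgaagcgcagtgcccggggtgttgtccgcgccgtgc
SLC25A5 (chrX:119468194-119468421, plus strand): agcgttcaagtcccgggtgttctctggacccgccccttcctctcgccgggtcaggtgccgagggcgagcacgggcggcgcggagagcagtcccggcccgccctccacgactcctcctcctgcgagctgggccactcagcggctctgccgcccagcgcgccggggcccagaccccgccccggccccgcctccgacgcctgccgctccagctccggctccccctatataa
SLC25A39 (chr17:44324871-44325073, minus strand): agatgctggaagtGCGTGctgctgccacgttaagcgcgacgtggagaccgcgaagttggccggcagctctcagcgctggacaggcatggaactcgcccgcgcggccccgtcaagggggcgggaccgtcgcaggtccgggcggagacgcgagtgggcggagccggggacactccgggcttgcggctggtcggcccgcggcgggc
The stretch of SLC25A29 held 1 match to the AHR core and 1 CCAAT box (CCAAT or ATTGG), that of SLC25A39 held 1 AHR core and no CCAAT box, and that of SLC25A5 held neither. GC boxes (GGGCGG or CCGCCC) numbered 1, 3 and 5 in these stretches. Promoter windows were found by symbol for 32 of the 38 carriers, as 41 windows of 250 bases before a start. The AHR core was in 73.2% of these 41 windows and in 32.2% of all 35116 windows of the table, the GC box in 68.3% and 42.6%, and the CCAAT box in 43.9% and 32%. The carrier windows had a median GC content of 66.8%, against 58% over all windows. The 35116 windows were not limited to analysed genes, and whether a motif is enriched in the carriers was not tested. Such a match is a run of letters and says nothing of whether a factor binds there.

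The carriers spanned a wide range of levels, and a few genes made up most of the family's mRNA. Summed over the 38 carriers, the family made up 0.348% to 0.426% of all transcripts, depending on the library. SLC25A5, SLC25A6 and SLC25A3 together made up from 66.8% to 73% of that sum. SLC25A5 and SLC25A6 are ADP/ATP translocases and SLC25A3 is the phosphate carrier, so carriers that serve ATP synthesis made up most carrier transcripts in both lines. In all, 6 carriers had a mean over the 6 libraries above 100 TPM, 24 lay between 10 and 100 TPM and 8 were under 10 TPM.

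**Figure D1:**
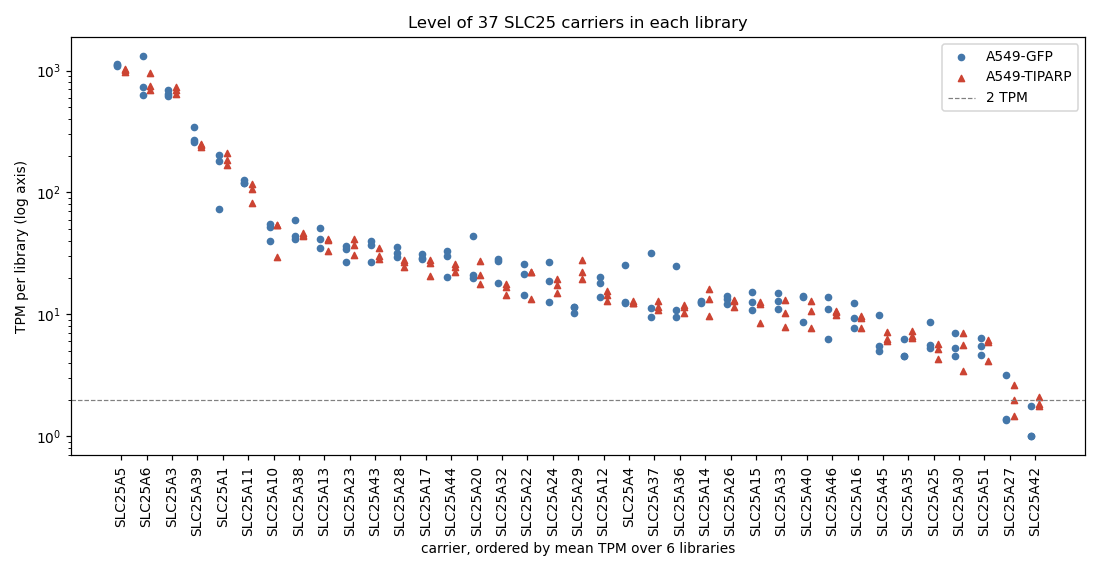
TPM of 37 analysed carriers in each library on a log axis, with A549-GFP libraries as circles and A549-TIPARP libraries as triangles, and carriers ordered by their mean over the 6 libraries. The levels run from 1055 TPM for SLC25A5 to 1.58 TPM for SLC25A42, and for most carriers the symbols of the lines lie among each other.

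The order of the levels was clear at only a few places. SLC25A5 had a mean of 1055 ± 67.1 TPM (SD, n = 6), SLC25A6 845 ± 252 TPM and SLC25A3 671 ± 40.9 TPM, and the ranges of these neighbours overlapped. SLC25A39, a glutathione carrier, followed at 267 ± 38.8 TPM with all libraries below those of SLC25A3. SLC25A1, the citrate carrier, at 170 ± 49.3 TPM and SLC25A11, the oxoglutarate/malate carrier, at 112 ± 16 TPM overlapped with each other. Of the 37 pairs of neighbours in this order, 33 overlapped in their ranges. The 4 gaps without overlap lay below SLC25A3, SLC25A39, SLC25A11 and SLC25A51, and most carriers from rank 7 down therefore cannot be ranked against their neighbours.

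Of the 48 symbols, 10 were not analysed. The symbols SLC25A2, SLC25A18, SLC25A31, SLC25A34, SLC25A41, SLC25A47, SLC25A48, SLC25A52 and SLC25A53 were listed at the floor of 1 TPM in all 6 libraries. SLC25A31 is the testis isoform of the ADP/ATP translocase and SLC25A18 the second glutamate carrier. SLC25A21, the oxodicarboxylate carrier, lay just below the limit with at most 1.96 TPM, and SLC25A42 just above it with at most 2.09 TPM. The remaining entry that was left out was a second one for SLC25A6, which lies in a region shared by the sex chromosomes, and it reached 1.38 TPM at most against at least 633 TPM for the entry analysed here.

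The mean was lower in A549-TIPARP cells for 28 of the 38 carriers (73.7%), against 59.9% of all analysed genes. With library medians brought to a common level, called rescaling below, it was lower for 27 (71.1%, against 51.3% of all genes), after a correction for the GC content of transcripts for 24 (63.2%, against 49.6%) and without A549-GFP replicate 2 for 23 (60.5%, against 42.6%). The median difference was -0.13 on the log2 scale for the carriers and -0.066 for all genes. Without A549-GFP replicate 2 these medians were -0.086 and 0.047, and with single libraries left out the carrier median lay between -0.26 without A549-GFP replicate 3 and -0.056 without A549-TIPARP replicate 3. SLC25A29 alone was more than 2-fold higher (2.63% of the carriers, against 1.53% of all genes) and none was more than 2-fold lower (0.432% of all genes). By limma none of the 38 had an adjusted p-value under 0.05 (0.0152% of all genes), and 2 had an unadjusted one (5.26%, against 3.85% of all genes), SLC25A29 on the higher side (2.97% of all genes) and SLC25A32 on the lower (0.88%). SLC25A32 lost this unadjusted p-value in 5 of the 6 fits with a library left out, all but that without A549-GFP replicate 3. With 1 or 2 carriers past each threshold, these counts are not a result about the carriers as a family. After rescaling the median differences were -0.075 for the carriers and -0.0084 for all genes.

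**Figure D2:**
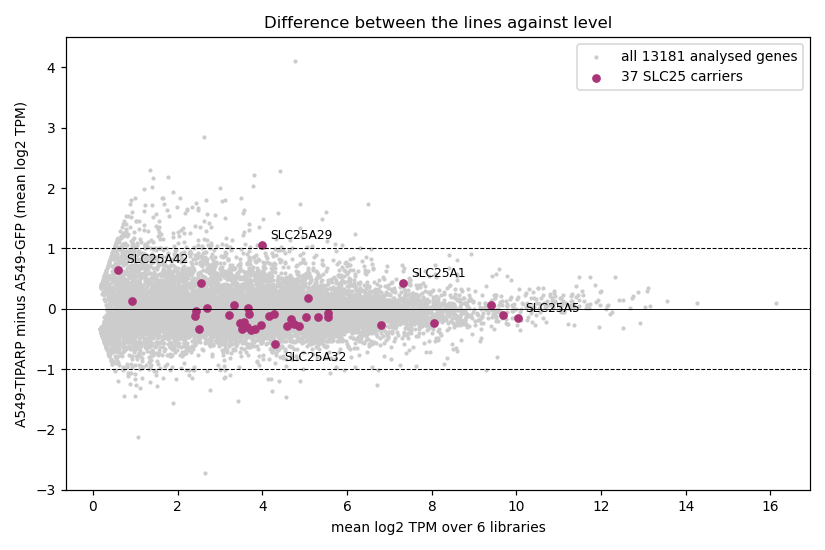
Difference between the lines (A549-TIPARP minus A549-GFP, mean log2 TPM of 3 libraries each) against mean log2 TPM over the 6 libraries, for all 13181 analysed genes in grey and 37 carriers in colour, with dashed lines at 2-fold; 3 genes lie outside the vertical axis. SLC25A29 is the only carrier beyond a dashed line, and the other carriers lie within the grey cloud.

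The libraries of the lines did not overlap for 8 carriers. All A549-TIPARP libraries stood higher than all A549-GFP libraries for SLC25A29 and SLC25A35 (5.26% of the carriers, against 5.36% of all genes). All A549-TIPARP libraries stood lower for SLC25A5, SLC25A11, SLC25A17, SLC25A28, SLC25A32 and SLC25A39 (15.8%, against 3.54% of all genes). After rescaling 3 carriers were lower in this way, SLC25A12, SLC25A28 and SLC25A32 (5.45% of all genes), and 3 were higher, SLC25A29, SLC25A35 and SLC25A42 (6.64% of all genes). SLC25A42 passed the limit of 2 TPM only in A549-TIPARP replicate 3, at 2.09 TPM, so the filter favoured finding it higher. With the GC correction 4 were lower, SLC25A25, SLC25A28, SLC25A32 and SLC25A39 (6.02% of all genes), and 3 were higher (7.09%). SLC25A28 and SLC25A32 were thus in this set under each of these scalings, and SLC25A5, SLC25A11 and SLC25A17 in neither of them.

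Among the carriers of amino acids and acylcarnitine, 8 of 10 listed members were analysed, and 7 of the 8 averaged lower in A549-TIPARP cells, beside 59.9% of all genes. The exception was SLC25A29, a carrier of basic amino acids such as arginine and lysine (Entrez Gene ID 123096, chr14:100291116-100306547 of hg38, minus strand). Its libraries stood at 11.6, 11.4 and 10.3 TPM for A549-GFP, against 22.3, 19.7 and 28 TPM for A549-TIPARP. All A549-TIPARP libraries stood far above the A549-GFP libraries, which lay close together, A549-GFP replicate 2 included. The mean log2 TPM was 3.47 ± 0.087 (SD, n = 3) in A549-GFP cells and 4.53 ± 0.26 (SD, n = 3) in A549-TIPARP cells, a difference of 1.06 or 2.08-fold. In limma, fitted on log2(TPM + 1), the difference was 0.99 (standard error 0.21), with an adjusted p-value of 0.424. Leaving out single libraries gave differences between 0.92 and 1.17, under 2-fold only without A549-TIPARP replicate 3. The alternatives gave adjusted p-values of 0.225 to 1. The transcript of SLC25A29 is rich in G and C (58.4%), and after the GC correction the difference was 1.05. Its neighbour SLC25A47, another carrier gene 16791 bases away on the same chromosome, was at the floor in all 6 libraries.

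The other amino acid carriers differed by -0.28 to -0.073 on the log2 scale, and the libraries of the lines overlapped for each. SLC25A20, which brings acylcarnitines in for fatty acid oxidation, had 20.9, 44.2 and 19.8 TPM in the A549-GFP libraries, against 20.9, 17.7 and 27.6 TPM in the A549-TIPARP ones. Only A549-GFP replicate 2 was high, and without it the difference of -0.28 became 0.089. SLC25A12 and SLC25A13, the aspartate/glutamate carriers of the malate-aspartate shuttle, had differences of -0.27 and -0.14. The ornithine carrier SLC25A15 had -0.22, the branched-chain amino acid carrier SLC25A44 had -0.17, the glutamate carrier SLC25A22 had -0.09 and the glycine carrier SLC25A38, which haem synthesis needs, had -0.073. Without A549-GFP replicate 2 SLC25A38 changed sign to 0.089, SLC25A44 had -0.024, SLC25A12 had -0.14, SLC25A15 had -0.34 and SLC25A22 had -0.33, and 5 of the 8 carriers of this group averaged lower (42.6% of all genes). None of these 7 carriers had a limma adjusted p-value under 0.994 with all libraries. With single libraries left out SLC25A22 ran from -0.33 to 0.16 and SLC25A13 from -0.28 to 0.0016.

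**Figure D3:**
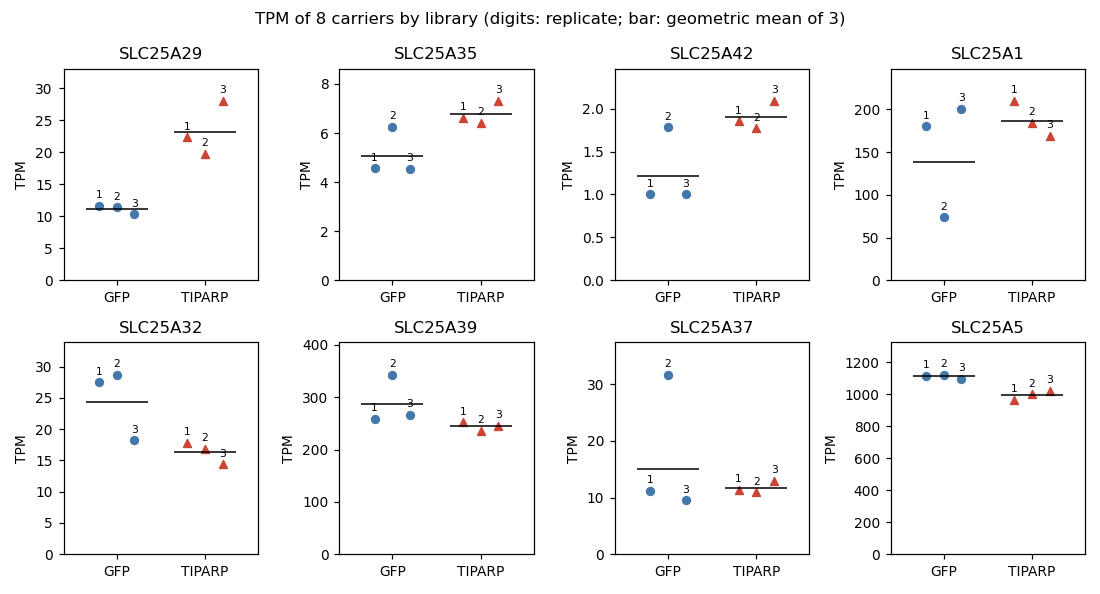
TPM of 8 carriers in each library on linear axes that start at 0, with circles for A549-GFP, triangles for A549-TIPARP, digits for the replicate and bars for the geometric mean of the 3 libraries. The lines separate widely for SLC25A29 and narrowly for SLC25A35, SLC25A32, SLC25A39 and SLC25A5, while A549-GFP replicate 2 alone sets the difference for SLC25A37 and SLC25A1.

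Among the carriers of nucleotide cofactors and pyrimidines, 9 of 10 listed members were analysed and 8 of the 9 averaged lower in A549-TIPARP cells, beside 59.9% of all genes. SLC25A32, which carries folate and FAD into the matrix (Entrez Gene ID 81034, chr8:103398635-103415189 of hg38, minus strand), had 27.5, 28.7 and 18.2 TPM in the A549-GFP libraries. It had 17.8, 16.9 and 14.4 TPM in the A549-TIPARP libraries. Every A549-TIPARP library was below every A549-GFP library, but A549-GFP replicate 3 lay just above them. The mean log2 TPM was 4.60 ± 0.36 in A549-GFP cells and 4.03 ± 0.16 in A549-TIPARP cells (SD, n = 3), a difference of -0.58 or 1.49-fold lower. The limma difference was -0.55 (standard error 0.23, adjusted p = 0.994, and 0.558 to 1 over the alternatives). The difference was -0.45 without A549-GFP replicate 2 and -0.44 after the GC correction.

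SLC25A17, the peroxisomal carrier of cofactors, had 31.5, 28.5 and 28.9 TPM in the A549-GFP libraries, against 26.5, 27.8 and 20.6 TPM in the A549-TIPARP ones. Its lines were separate by less than 1 TPM, at a difference of -0.26 (limma adjusted p = 0.994), which was -0.13 without A549-TIPARP replicate 3 and -0.15 after the GC correction.

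SLC25A42, the coenzyme A carrier, was the one member of this group with a higher mean in A549-TIPARP cells. It was at the floor in A549-GFP replicates 1 and 3 and had 1.78 TPM in replicate 2, against 1.85, 1.77 and 2.09 TPM in the A549-TIPARP libraries. Every one of these values lies near the floor of the tables, and A549-GFP replicate 2 reached the A549-TIPARP libraries. Only A549-TIPARP replicate 3 passed the limit of 2 TPM. The difference was 0.65 as deposited, a value that the floor limits, 0.38 with a pseudocount of 1 and 0.93 without A549-GFP replicate 2 (limma adjusted p = 0.994 with all libraries). SLC25A51, the carrier that brings NAD into mitochondria, had a difference of -0.043, or -0.16 without A549-GFP replicate 2. With other libraries left out it reached 0.14. Its close copy SLC25A52 was at the floor in all 6 libraries. The pyrimidine nucleotide carrier SLC25A33 had 15.1, 11.1 and 12.8 TPM in the A549-GFP libraries, against 10.2, 13.1 and 7.95 TPM in the A549-TIPARP ones, which overlapped at a difference of -0.33. It was -0.51 without A549-TIPARP replicate 2, -0.22 without A549-GFP replicate 1 and -0.15 without A549-TIPARP replicate 3. SLC25A36, of the same substrate class, had 10.8, 25 and 9.48 TPM in the A549-GFP libraries, against 10.2, 11.4 and 11.9 TPM in the A549-TIPARP ones. Only A549-GFP replicate 2 was high, and without it the difference of -0.30 became 0.14. SLC25A16 had -0.11 and the S-adenosylmethionine carrier SLC25A26 had -0.081. After the GC correction 5 of the 9 carriers of this group averaged lower, beside 49.6% of all genes, and without A549-GFP replicate 2 there were 7, beside 42.6%.

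Among the carriers of adenine nucleotides and phosphate, 7 of 9 listed members were analysed, and the largest difference in size was -0.34. SLC25A5, an ADP/ATP translocase (Entrez Gene ID 292, chrX:119468422-119471396 of hg38, plus strand), had 1118, 1123 and 1098 TPM in the A549-GFP libraries. It had 965, 1001 and 1024 TPM in the A549-TIPARP libraries. The libraries of each line lay close together and those of the lines did not overlap, although the difference was small, at -0.16 or 1.12-fold lower. The mean log2 TPM was 10.12 ± 0.017 in A549-GFP cells and 9.96 ± 0.043 in A549-TIPARP cells (SD, n = 3), and limma gave a standard error of 0.13 and an adjusted p-value of 0.994. With each library left out the difference ran from -0.18 to -0.14, and it was -0.10 after rescaling and -0.088 after the GC correction.

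The other translocases and the phosphate carrier overlapped between the lines. SLC25A6, the third translocase isoform, had 633, 1310 and 735 TPM in the A549-GFP libraries, against 748, 690 and 953 TPM in the A549-TIPARP ones. SLC25A4, the isoform typical of heart and muscle, had 12.7, 25.3 and 12.3 TPM in the A549-GFP libraries, against 12.4, 12.3 and 12.9 TPM in the A549-TIPARP ones. For both genes A549-GFP replicate 2 was the highest library, and without it the difference went from -0.10 to 0.21 for SLC25A6 and from -0.34 to 0.0039 for SLC25A4. SLC25A3 had 647, 621 and 695 TPM in the A549-GFP libraries, against 638, 697 and 726 TPM in the A549-TIPARP ones, a difference of 0.07 (limma standard error 0.14, adjusted p = 0.994). Within the translocase pool SLC25A5 accounted for 45.7% to 63.4%, SLC25A6 from 35.9% to 53.3% and SLC25A4 from 0.647% to 1.03%.

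The calcium-regulated ATP-Mg/phosphate carriers adjust the adenine nucleotide content of the matrix. SLC25A23 had 36.1, 34.2 and 26.8 TPM in the A549-GFP libraries, against 37.3, 30.5 and 41.4 TPM in the A549-TIPARP ones, a difference of 0.17, which was 0.29 without A549-TIPARP replicate 2, 0.071 without A549-TIPARP replicate 3 and 0.04 without A549-GFP replicate 3. SLC25A24 had -0.12 and SLC25A25 had -0.33, which without A549-GFP replicate 2 were -0.10 and -0.11. With single libraries left out SLC25A24 ran from -0.39 to 0.15 and SLC25A25 from -0.46 to -0.11. All 3 of these carriers overlapped between the lines (limma adjusted p = 0.994 for each).

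Of the carriers of di- and tricarboxylates, SLC25A1, SLC25A10 and SLC25A11 were analysed. SLC25A1 had 180, 73.5 and 201 TPM in the A549-GFP libraries, against 210, 184 and 169 TPM in the A549-TIPARP ones. Only A549-GFP replicate 2 was low, and without it the difference of 0.43 became -0.026 (limma adjusted p = 0.994 with all libraries). SLC25A11, which exchanges oxoglutarate for malate in the malate-aspartate shuttle, had 126, 120 and 120 TPM in the A549-GFP libraries, against 106, 118 and 82.4 TPM in the A549-TIPARP ones. The lines did not overlap, yet A549-TIPARP replicate 2 lay close to the A549-GFP libraries. The difference was -0.27 (limma standard error 0.18, adjusted p = 0.994) and became -0.12 without A549-TIPARP replicate 3. The dicarboxylate carrier SLC25A10 had a difference of -0.13, or -0.27 without A549-GFP replicate 2. With single libraries left out it ran from -0.28 to 0.16.

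All 4 carriers of iron and glutathione were analysed, and each averaged lower in A549-TIPARP cells (59.9% of all genes did), with a median difference of -0.26. There were 3 that averaged lower without A549-GFP replicate 2 (42.6% of all genes), with a median of -0.11. SLC25A39 (Entrez Gene ID 51629) had 259, 343 and 267 TPM in the A549-GFP libraries, against 252, 236 and 245 TPM in the A549-TIPARP ones, a difference of -0.24. The libraries did not overlap, but most of the difference came from A549-GFP replicate 2, without which it was -0.11. SLC25A28, or mitoferrin 2, which brings iron into mitochondria outside the erythroid lineage, had 31.7, 35.6 and 29.8 TPM in the A549-GFP libraries, against 27.1, 27.9 and 24.3 TPM in the A549-TIPARP ones. Its lines did not overlap, and the difference of -0.29 (limma standard error 0.18, adjusted p = 0.994) was -0.22 without A549-GFP replicate 2. SLC25A37, or mitoferrin 1, the erythroid isoform, had 11.2, 31.7 and 9.53 TPM in the A549-GFP libraries, against 11.4, 10.9 and 13 TPM in the A549-TIPARP ones. Only A549-GFP replicate 2 was high, and without it the difference of -0.35 became 0.19. SLC25A40 had a difference of -0.23, or -0.12 without A549-GFP replicate 2, and overlapped between the lines.

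Among 3 relatives of the uncoupling proteins and 4 further carriers outside the groups above, SLC25A35 alone separated the lines. It had 4.56, 6.24 and 4.54 TPM in the A549-GFP libraries, against 6.62, 6.42 and 7.31 TPM in the A549-TIPARP ones. The lines did not overlap, with A549-GFP replicate 2 just under the lowest A549-TIPARP library. The difference was 0.42 (limma standard error 0.22, adjusted p = 0.994), and it was 0.57 without A549-GFP replicate 2. SLC25A27, or UCP4, had 1.37, 3.16 and 1.38 TPM in the A549-GFP libraries, against 1.97, 1.46 and 2.63 TPM in the A549-TIPARP ones, a difference of 0.12. SLC25A30 had 7.03, 4.57 and 5.29 TPM in the A549-GFP libraries, against 5.57, 6.98 and 3.43 TPM in the A549-TIPARP ones, a difference of -0.12. SLC25A43 had 39.7, 37.4 and 26.7 TPM in the A549-GFP libraries, against 28.4, 30 and 35.3 TPM in the A549-TIPARP ones, a difference of -0.13. None of these genes separated the lines. SLC25A14, or UCP5, had a difference of 0.017, SLC25A45 had 0.01 and the outer membrane member SLC25A46 had 0.064. Without A549-GFP replicate 2 SLC25A45 had 0.31, SLC25A46 had 0.30, SLC25A27 had 0.52, SLC25A30 had -0.26 and SLC25A43 had -0.066.

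Single libraries weighed on many carriers. A549-GFP replicate 2 was the highest of the 6 libraries for 16 of the 38 carriers (42.1%, against 52% of all genes) and A549-TIPARP replicate 3 was the lowest for 17 (44.7%, against 25% of all genes). A549-GFP replicate 1 was the highest for 13 (34.2%, against 19.2% of all genes) and A549-GFP replicate 3 the lowest for 13 (34.2%, against 37.5% of all genes). Across libraries and carriers, log2 TPM deviated from the mean of the carrier by -1.13 for SLC25A1 to 1.26 for SLC25A37, both in A549-GFP replicate 2. Carriers with all A549-TIPARP libraries lower numbered 7, 6 and 12 without A549-GFP replicates 1, 2 and 3 (5.77%, 6.42% and 23.5% of all genes), and 7, 8 and 6 without A549-TIPARP replicates 1, 2 and 3 (5.21%, 7.97% and 5.48%). The 6 carriers separate with all libraries are in each of these counts by construction. Carriers with all A549-TIPARP libraries higher numbered 2, 6 and 2 without A549-GFP replicates 1, 2 and 3 (8.12%, 21.2% and 7.21% of all genes), and 3, 4 and 3 without A549-TIPARP replicates 1, 2 and 3 (6.53%, 8.13% and 8.07%). SLC25A29 and SLC25A35 are again in each count by construction. Without A549-GFP replicate 2 SLC25A27, SLC25A38, SLC25A42 and SLC25A45 joined them, of which SLC25A42 was analysed only through A549-TIPARP replicate 3.

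**Figure D4:**
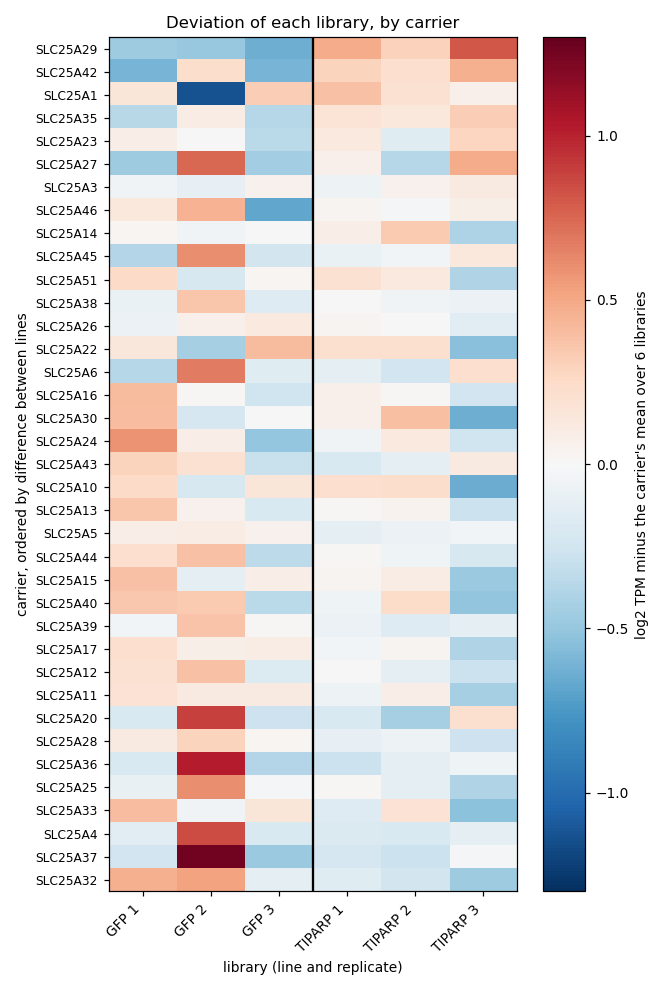
Deviation of log2 TPM in each library from the carrier's mean over the 6 libraries, with 37 carriers in rows ordered by the difference between the lines and libraries in columns, A549-GFP left and A549-TIPARP right of the black line. SLC25A29 changes colour at the line, while the strongest colours, SLC25A1 at -1.13 and SLC25A37 at 1.26, are in A549-GFP replicate 2.

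**Figure D5:**
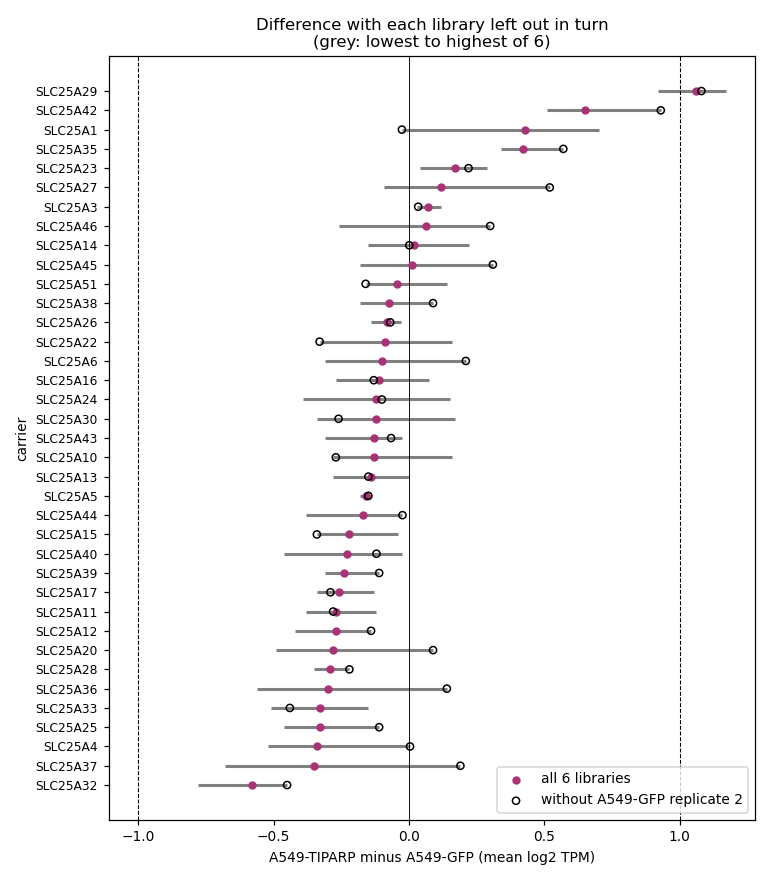
Difference between the lines (A549-TIPARP minus A549-GFP, mean log2 TPM) of 37 carriers, with filled points for all 6 libraries, grey bars from the lowest to the highest value with each library left out in turn, and open circles without A549-GFP replicate 2. SLC25A29 stays between 0.92 and 1.17, and the bars of 18 carriers cross 0, SLC25A1, SLC25A6, SLC25A20 and SLC25A37 among them.

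Where carriers share a substrate, the ratio of the paralogues within a library was compared, since such a ratio does not depend on the scaling of the library. It can still differ with the GC content of the transcripts. SLC25A5 stood above SLC25A4 in all 6 libraries, by 44.4-fold to 89.5-fold, and above SLC25A6 in 5 of 6, with a ratio of 0.858 to 1.77. The aspartate/glutamate carrier SLC25A13 was 2.03-fold to 2.87-fold above SLC25A12, and the mitoferrin SLC25A28 1.12-fold to 3.13-fold above SLC25A37, in 6 of 6 libraries each. The glutathione carrier SLC25A39 was 18.2-fold to 31.7-fold above SLC25A40. Among the ATP-Mg/phosphate carriers SLC25A23 was 1.35-fold to 2.78-fold above SLC25A24, which was 2.19-fold to 5.06-fold above SLC25A25. Of the pyrimidine carriers SLC25A36 was above SLC25A33 in 2 of 6 libraries, so their order could not be told. The log2 ratio of SLC25A23 to SLC25A24 was 0.79 ± 0.33 in A549-GFP cells and 1.08 ± 0.41 in A549-TIPARP cells (SD, n = 3), a difference of 0.29. The two-sided exact permutation test gave p = 0.4, and all 8 adjusted p-values were 1. Without A549-GFP replicate 2 this difference was 0.32, and it was 0.58 for SLC25A36 to SLC25A33, -0.41 for SLC25A28 to SLC25A37 and -0.37 for SLC25A5 to SLC25A6, where it was 0.039, 0.065 and -0.058 with all libraries. With 3 libraries against 3 such a test cannot go below 0.1. The ratios were not corrected for GC content, which was 58.7% for SLC25A23 and 38.5% for SLC25A24. After the GC correction these genes differed between the lines by 0.16 and 0.026, against 0.17 and -0.12 as deposited. SLC25A5 and SLC25A6 also differed in GC content, at 47.8% and 60.7%.

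Other entries could share reads with the carriers. The tables list 41 pseudogenes with symbols of this family, and all were at the floor in all 6 libraries, but the way reads that match several genes were counted is not given in the sources used here. SLC25A5 and SLC25A6 and SLC25A51 and SLC25A52 are close copies, so their division is uncertain. Antisense genes were listed for 4 carriers. The library kit keeps strand, but whether the counting used it is not given, so reads of a carrier and its antisense gene cannot be told apart. SLC25A5-AS1 had 6.05 to 8.31 TPM, SLC25A25-AS1 3.1 to 15.4 TPM and SLC25A21-AS1 1.68 to 4.79 TPM, and SLC25A30-AS1 was at the floor. SLC25A25-AS1 exceeded SLC25A25 itself in A549-GFP replicate 2, at 15.4 against 8.61 TPM, and in A549-TIPARP replicate 3, at 7.1 against 4.32 TPM.

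The carrier family also has members under other symbols, of which UCP2, MTCH1 and MTCH2 were analysed and UCP1 and UCP3 were not. UCP2, an uncoupling protein found in many tissues, had 44.7, 30.4 and 50.5 TPM in the A549-GFP libraries, against 89.9, 77.1 and 88.2 TPM in the A549-TIPARP ones. The lines did not overlap, with a difference of 1.05 (limma difference 1.03, standard error 0.22, adjusted p = 0.447), which was 0.84 and under 2-fold without A549-GFP replicate 2, its lowest library. MTCH1, an outer membrane member, was also higher in all A549-TIPARP libraries, at a difference of 0.25 (adjusted p = 0.994).

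Of the other genes listed for mitochondrial transport or fatty acid entry, none passed the limma test adjusted over all genes, and CPT1C was the one past 2-fold. Of 20 transporters and channels of other families 14 averaged lower in A549-TIPARP cells, beside 59.9% of all genes. Their median difference of -0.066 was also that of all genes. After the GC correction 10 of the 20 averaged lower (49.6% of all genes), and without A549-TIPARP replicate 3 there were 9 (55.5%). The smallest p-value was that of VDAC2, an outer membrane channel (difference -0.32, limma adjusted p = 0.994). Of 13 genes of the import route that inserts carriers into the inner membrane, 11 had a lower mean, with a median of -0.19. Without A549-TIPARP replicate 3 there were 9, with a median of -0.084. In this list TIMM10 had the smallest p-value (difference -0.40, limma adjusted p = 0.994), and its difference was -0.12 without A549-TIPARP replicate 3. All 6 enzymes of the malate-aspartate shuttle and of citrate metabolism had a lower mean, from -0.32 to -0.047, with CS, the citrate synthase gene, at -0.32 (adjusted p = 0.994), and 5 of the 6 did after rescaling or the GC correction. Of 5 genes listed for carnitine and fatty acid entry 3 had a higher mean, while CPT1A had a difference of -0.30. Leaving out A549-TIPARP replicate 3 made 4 of the 5 lower, and leaving out A549-GFP replicate 1 or 3 made 3 lower. CPT1C stood at 1, 2.8 and 1.77 TPM in the A549-GFP libraries, against 2.54, 3.43 and 4.81 TPM in the A549-TIPARP ones. These values lie near the floor and overlap, with a difference of 1.03 (adjusted p = 0.994), which was 0.71 with a pseudocount of 1, 0.64 without A549-GFP replicate 1 and 0.79 without A549-TIPARP replicate 3. Over these 47 genes 33 averaged lower in A549-TIPARP cells, beside 59.9% of all genes, and 2 were more than 2-fold higher, UCP2 and CPT1C, beside 1.53% of all genes. CPT1C alone was past 2-fold without A549-GFP replicate 2. After rescaling 28 of the 47 averaged lower, beside 51.3% of all genes, and after the GC correction 26, beside 49.6%.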

How the data were processed

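RNA of 3 A549-GFP and 3 A549-TIPARP libraries was sequenced as paired ends. In Strand NGS, left at its defaults, the authors aligned reads to hg38 transcripts and computed TPM. They deposited log2 TPM for 53826 entries in a table for each library, with no counts. The lowest deposited log2 value was 0, and values above it summed to 998332 to 998442 TPM, so TPM below 1 stood at 1. TPM keeps no depth. Software version and annotation release are not given in the sources used here.

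Samples were grouped and numbered from their titles. Genes were analysed if any of the 6 libraries exceeded 2 TPM, the study's limit. The difference was that of the mean deposited log2 values. limma 3.58.1 (R 4.3.3) was run on log2(TPM + 1) of all 13181 genes with its variance trend, and p-values were adjusted by Benjamini-Hochberg. This pseudocount and the floor make differences of low genes smaller. The members, role groups and gene lists, and the rule for 21 carriers to give by library (past 2-fold, the 12 smallest p-values, the 5 highest levels, the translocases, and the extremes of each role group), were chosen with earlier results of these data known. The values of 1 of these carriers are not reported here, and it is not plotted, but it is included in all counts and medians. CPT1C and other genes outside the family are named for the smallest p-value of their list or were chosen after their values were seen. Paralogue pairs were chosen after the levels were seen, and their 8 ratios were compared with exact permutation tests.

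Alternatives were other pseudocounts, filters and scalings (rescaling divided each library by the median of its ratios to the mean library), limma without a trend, a replicate block, a lowess GC correction (span 0.3, longest GENCODE 44 transcript, GC known for 98.3% of genes) and each library left out. limma was tested on simulated data with 200 changed genes, each changed by more than any carrier differed here. It recovered 136 of them (68%), and how often it recovers smaller changes was not tested. Coordinates are of GENCODE 44 on hg38.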

Additional observations from a re-analysis of the deposited data

How the results depend on the processing

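No carrier had a limma adjusted p-value under 0.05 under any of the 15 alternatives. SLC25A29 was no longer past 2-fold with a pseudocount of 1 for the fold change, which left 0 carriers past it, or without A549-TIPARP replicate 3, so that the count ran from 0 to 1 with each library left out. Carriers with an unadjusted limma p-value under 0.05 numbered 2, and 4 after median-ratio rescaling (6.05% of all genes), when SLC25A35 and SLC25A42 joined. SLC25A42 had passed the limit of 2 TPM only in A549-TIPARP replicate 3, at 2.09 TPM. There were 3 after the GC correction (6.16%) and 3 with no filter (4.46%). With a library left out there were from 1 to 3 (1.92% to 10.5%), the 3 being without A549-GFP replicate 2 (10.5%). SLC25A32 dropped out in 5 of these 6 fits, the exception being that without A549-GFP replicate 3. Carriers with every A549-TIPARP library lower numbered 3 after median-ratio rescaling and from 6 to 12 with a library left out, 12 being without A549-GFP replicate 3 (23.5% of all genes). Carriers with every A549-TIPARP library higher ran from 2 to 6, with 6 without A549-GFP replicate 2 and 4 without A549-TIPARP replicate 2 (8.13% of all genes).

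Of the 21 carriers chosen by the rule, 7 changed sign under some alternative. With each library left out SLC25A1 ran from -0.026 to 0.70, SLC25A4 from -0.52 to 0.0039, SLC25A6 from -0.31 to 0.21, SLC25A20 from -0.49 to 0.089, SLC25A27 from -0.094 to 0.52, SLC25A30 from -0.34 to 0.17 and SLC25A37 from -0.68 to 0.19. SLC25A30 was also 0.01 after the GC correction, without and with the replicate block, the latter chosen after the data were seen. Transcript GC content and the difference between the lines correlated across the 12951 genes with a GC value (r = 0.231, genes not being independent) and across the 38 carriers (r = 0.353).

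Deviations of same-numbered libraries from the mean of their line correlated across genes with r = 0.415, -0.486 and -0.358 in experiments 1, 2 and 3 (mean -0.143). For differently numbered libraries r ran from -0.618 to 0.597. Deviations from a mean of 3 libraries depend on each other, so these values cannot decide whether libraries were paired. The main fit did not treat same-numbered libraries as pairs. With the replicate block, 2 carriers had an unadjusted limma p-value under 0.05 (3.14% of all genes) and 0 an adjusted one, the same counts as without it, and 0 of the other mitochondrial transport genes had an adjusted one. Depth is unknown, so no counting error could be given for carriers near the floor, such as SLC25A27 and SLC25A42.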
